A study of Mus musculus with 4 samples.

Results

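The S100 genes examined here were *S100a8*, *S100a9*, *S100a4*, *S100a6*, *S100a10*, *S100a11* and *S100a13*, a list of 7 symbols of myeloid S100 genes. Each symbol matched 1 gene identifier, which gave 7 of the 28585 genes in the deposited RNA sequencing data. The libraries were made from polymorphonuclear myeloid-derived suppressor cells (PMN-MDSCs), neutrophil-like cells that restrain T cells, taken from the spleens of mouse pups on postnatal day 7. There were 2 libraries of the genotype Dhps cko (Dhps fl/fl with Lysm cre) and 2 of the genotype Dhps flox (Dhps fl/fl without Cre), and floxed *Dhps* alleles were therefore common to both groups. *Dhps* encodes deoxyhypusine synthase, the enzyme that starts the hypusination of the translation factor eIF5A. The question was how S100 transcripts compared between PMN-MDSCs with and without the Cre that deletes it.

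The mice were on a C57BL/6J background, and the cells were isolated as CD11b+ Ly6C lo/- Ly6G+ cells, with 300000 cells per library. The Lysm cre allele expresses Cre from the *Lyz2* locus in myeloid cells in general, so the deletion was not limited to PMN-MDSCs. The labels do not say whether a library came from 1 pup or from a pool, so p-values measure the spread between these libraries, which may in part be technical. In bulk RNA, fewer cells of a type and less RNA per cell cannot be told apart.

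S100 proteins are small calcium sensors with a pair of EF-hand calcium-binding loops, and most work as dimers. S100A8 and S100A9 pair as calprotectin, which fills the neutrophil cytosol, withholds zinc and manganese from microbes, and signals through TLR4 and RAGE once released. The other members mainly act inside the cell by binding partners such as annexins and non-muscle myosin.

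In all 4 libraries *S100a9* and *S100a8* were among the 3 most abundant transcripts, and the 7 S100 genes held between 10.92% and 11.98% of the library's FPKM sum (FPKM, a fragment count corrected for the length of the transcript and the depth of the library). None of the 7 differed between the genotypes at an adjusted p under 0.05. *S100a11* showed the smallest p among them, with 119.9% of its Dhps flox level in Dhps cko. The widest difference in the wider family was that of *S100g*, which is not among the 7 and did not pass the threshold either.

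The FPKM sums of the libraries lay between 304281 and 319286, and steps between low FPKM values placed the depth at roughly 29800000 to 32200000 mapped fragments. The fit was weak, with 40% to 42.6% of these low values within 0.15 of a whole fragment. At a depth fixed beforehand 30% would be by chance, but the depth used was the best fit of a search, for which the chance level was not determined. Fragment numbers given here are therefore approximate. *Dhps* had 2.38 and 2.59 FPKM in Dhps cko and 3.57 and 3.11 FPKM in Dhps flox (log2 fold change -0.41, SE 0.13, limma adjusted p = 0.629), so its transcript was lower in both Dhps cko libraries without passing the threshold. *Lyz2*, which carries the Cre insertion, had 2245 and 2380 FPKM against 6874 and 6544 FPKM (log2 fold change -1.54, adjusted p = 0.0835, and 0.0084 to 0.946 across the alternatives). The sorted antigen *Itgam* (CD11b) reached 563 to 595 FPKM and *Ly6g* 184.8 to 241.6 FPKM. *Ly6c2* was measured at 157.95 to 192.2 FPKM although the cells were gated as Ly6C low or negative. The 8 neutrophil markers summed to 40550 to 42790 FPKM, led by *Ngp*, a secondary granule protein. Transcripts of other cells were present at lower summed levels, namely 116.5 to 145.6 FPKM for 10 monocyte-macrophage genes and 41.47 to 67.69 FPKM for 8 B cell genes, and both sums were higher in both Dhps cko libraries. The 4 Y-linked genes summed to 7.07 and 8.07 FPKM in Dhps cko and to 17.64 and 15.62 FPKM in Dhps flox, so the sum was lower in both Dhps cko libraries. All 4 genes were lower without overlap (16% of all genes tested) and had an unadjusted p under 0.05 (2.28% of all genes lower), and 0 had an adjusted p under 0.05 by limma (0.348 to 0.568). The X-linked gene *Xist* had 27.54 and 20.27 FPKM in Dhps cko and 16.25 and 17.17 FPKM in Dhps flox (log2 fold change 0.50, SE 0.15, limma adjusted p = 0.626). The labels do not give the sex of the pups, and the paper used both sexes. The part of sex in the differences between the genotypes was not tested.

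All 7 genes lie on chromosome 3 (GRCm38, gene models of GENCODE M21). The main S100 cluster of that chromosome spans 185 kb and 11 S100 genes present in the data, and holds *S100a13* (chr3:90514435-90524581, plus strand), *S100a4* (chr3:90603771-90606045, plus strand), *S100a6* (chr3:90612882-90624181, plus strand), *S100a8* (chr3:90668978-90670035, plus strand) and *S100a9* (chr3:90692632-90695721, minus strand). *S100a11* (chr3:93520488-93526287, plus strand) and *S100a10* (chr3:93555080-93564643, plus strand) lie together 2852 and 2886 kb from the *S100a8* start. All are protein-coding.

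The letters TATAAA, those of a TATA box, were found near the annotated starts of both calprotectin genes and of *S100a4*, and the bases around them are shown because these genes include the most abundant S100 transcripts and one of the weakly expressed members. The sequences are those of RefSeq (GRCm38.p6), 30 bases each, on the strand of the gene, with the TATAAA in capitals, and *S100g* is added for comparison since its transcript is described below.
S100a8 (chr3:90669029-90669058, plus strand): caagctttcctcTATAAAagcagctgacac
S100a9 (chr3:90695704-90695733, minus strand): caaggagctgccTATAAAtactgggcttac
S100a4 (chr3:90603727-90603756, plus strand): ggcctggcagggTATAAAtaggtcagattg
S100g (chrX:162964582-162964611, minus strand): gtctgtaaagacTATAAAagagcccctcct

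RefSeq promoters (250 bases before to 50 bases after the annotated start) were found for 6 of the 7 genes, all but *S100a10*. The TATAAA began 30 bases before the RefSeq start in *S100a8* and 31 bases before it in *S100a4*. For *S100a8* the GENCODE gene model given above starts 93 bases upstream of the RefSeq start, so the printed window lies inside that model. In *S100a9* and *S100g* it was placed at position 1, which means that the annotated transcripts begin at the TATAAA itself, and whether transcription starts there was not measured. On the strand of the gene and between 40 bases before and 20 bases after the start, TATAAA was found in 2.72% of the 32851 RefSeq promoters, and on either strand of the whole 300 bases in 13.6%. No TATAAA was present in the windows of *S100a6*, *S100a11* and *S100a13*.

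Letters of myeloid factors were searched in the same windows on both strands. TTNCNNAA, the core of C/EBP sites, occurred once in *S100a8*, starting 117 bases before the start, and at 236 and 130 bases before the start in *S100a9*, while 40.7% of all promoters held it. It was not found in the windows of *S100a4*, *S100a6*, *S100a11* or *S100a13*. GGAAGT, a core bound by the myeloid factor PU.1, occurred in *S100a8*, *S100a9*, *S100a11*, *S100a13* and *S100a4* and in 23.8% of all promoters. TTNCNNAA and GGAAGT were at separate positions in both calprotectin genes. The window of *S100g* held 6 matches of TTNCNNAA, on both strands and in part overlapping, and its transcript was at 2.11 to 9.34 FPKM. These are matches of letters, and factor binding was not measured in these libraries.

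*S100a9*, which encodes calgranulin B of the calprotectin pair, had 26387 and 28033 FPKM in Dhps cko and 26409 and 24504 FPKM in Dhps flox. It was the second most abundant transcript in 3 libraries, behind *Ngp*, and the first in Dhps cko replicate 2. The Dhps flox replicate 1 value lay between those of the Dhps cko libraries, so the groups overlapped. Group means were 27210 ± 1164 and 25457 ± 1347 FPKM (SD, n = 2 each), and the log2 fold change of Dhps cko against Dhps flox was 0.10 (SE 0.13, 95% interval -0.23 to 0.43, limma with Benjamini-Hochberg adjustment over 17948 genes, adjusted p = 0.915). Its log2 fold change lay between 0.03 (quantile normalization) and 0.15 (without Dhps flox replicate 1) over the 15 alternatives, and was 0.04 without Dhps flox replicate 2. *S100a9* made up 8.39% and 8.78% of the FPKM sum in Dhps cko and 8.37% and 8.05% in Dhps flox.

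*S100a8*, its calprotectin partner, had 7781 and 8315 FPKM in Dhps cko and 8662 and 7165 FPKM in Dhps flox. It was the third most abundant transcript in every library, and both Dhps cko values fell inside the range of the Dhps flox values. Between the genotypes, the log2 fold change was 0.03 (SE 0.13, 95% interval -0.30 to 0.36, limma adjusted p = 0.981). Its direction was not stable, since without Dhps flox replicate 2 it was -0.11 and without Dhps flox replicate 1 it was 0.17. *S100a8* made up 2.48% and 2.60% of the FPKM sum in Dhps cko and 2.75% and 2.36% in Dhps flox.

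The balance between the calprotectin transcripts was similar across libraries. The *S100a9* level per length was 3.39 and 3.37 times the *S100a8* level in Dhps cko, and 3.05 and 3.42 times in Dhps flox. Dhps flox replicate 1 had the lowest ratio and Dhps flox replicate 2 the highest, so the Dhps cko ratios lay within the range of the control libraries. Set against *Ngp*, *S100a9* stood at 0.946 and 1.02 in Dhps cko and at 0.969 and 0.930 in Dhps flox, again with overlap.

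**Figure D1:**
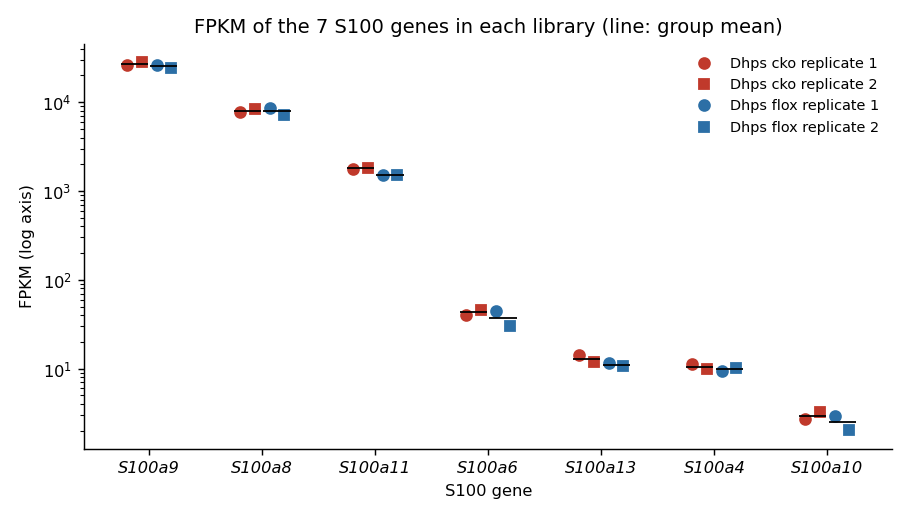
FPKM of each of the 7 S100 genes (horizontal axis) on a log axis, with 1 point per library, Dhps cko in red and Dhps flox in blue, and a black line at each group mean (n = 2). *S100a9*, *S100a8* and *S100a11* lie at 1495 FPKM or more and the other 4 genes at 46.22 FPKM or less, and *S100a11* and *S100a13* have all Dhps cko points above all Dhps flox points.

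*S100a11*, a partner of annexin A1, was the third member by level. It had 1786 and 1821 FPKM in Dhps cko and 1513 and 1495 FPKM in Dhps flox. Both Dhps cko libraries were above both Dhps flox libraries, and the libraries of a genotype lay close together, with means of 1803 ± 25.2 and 1504 ± 12.8 FPKM (SD, n = 2 each). This was a log2 fold change of 0.26 (SE 0.06, 95% interval 0.10 to 0.43). The unadjusted p of limma was 0.00998, which ranked 331st among all genes tested, and the adjusted p was 0.539. Across the 15 alternatives the log2 fold change stayed between 0.19 and 0.28 and the adjusted p between 0.376 and 0.946. The unadjusted p rose to 0.098 under quantile normalization, 0.0571 with no mean-variance trend, 0.0771 with a replicate block, 0.119 without Dhps cko replicate 1 and 0.144 without Dhps cko replicate 2.

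The same order of the groups appeared when *S100a11* was related to *S100a9*, *Ngp*, *Itgam* or *Anxa1* in the same library, which does not depend on the scaling between libraries. Over *S100a9* the ratio was 0.0677 and 0.0650 in Dhps cko and 0.0573 and 0.0610 in Dhps flox. Over *Ngp* it was 0.0640 and 0.0660 against 0.0555 and 0.0568, and over *Itgam* 3.07 and 3.24 against 2.65 and 2.51. Over *Anxa1*, the transcript of its annexin partner, the ratio was 1.29 and 1.13 in Dhps cko and 0.930 and 1.09 in Dhps flox. Each of these ratios had no overlap between the genotypes. The sorted antigen *Ly6g* was itself higher in both Dhps cko libraries (222.2 and 241.6 FPKM against 194.95 and 184.8 FPKM, log2 fold change 0.29, SE 0.07, limma adjusted p = 0.529), as was *Ly6c2* (192.2 and 183.75 FPKM against 157.95 and 160.8 FPKM, log2 fold change 0.24, adjusted p = 0.515). Over *Ly6g* the *S100a11* ratio was 8.04 and 7.54 in Dhps cko and 7.76 and 8.09 in Dhps flox, and over *Ly6c2* it was 9.29 and 9.91 against 9.58 and 9.30. The genotypes overlapped in both ratios, and the part of the sorted antigens in the *S100a11* result was not tested.

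*S100a11* has processed copies elsewhere in the genome, and how fragments were divided among them is not given in the sources used here. *Gm12854* (98.99% identity over 297 bases) had 26.82 to 37.22 FPKM and *Gm7665* (98.65% over 297 bases) had 52.76 to 68.44 FPKM, while *S100a11-ps* (93.7% over 303 bases) was listed at 0.1 FPKM in Dhps cko replicate 1 and at 0 in the other libraries. Together the copies amounted to 5.19% to 5.8% of the *S100a11* level. With them added, the levels were 1878 and 1927 FPKM in Dhps cko and 1600 and 1575 FPKM in Dhps flox, and Dhps cko again stood at 119.9% of Dhps flox.

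Most markers of 4 other blood cell types were higher in the same libraries as *S100a11*. Both Dhps cko libraries exceeded both Dhps flox libraries for 9 of 10 monocyte-macrophage genes, 6 of 8 B cell genes, 5 of 8 T cell genes and 5 of 6 eosinophil genes, compared with 20% of all genes tested. The log2 fold change was above 0 for every gene of these 4 lists, for 6 of 6 erythroid and 5 of 5 early neutrophil genes and for 7 of 8 neutrophil genes, compared with 52.2% of all genes, and 0 genes of these lists had an adjusted p under 0.05 by limma. Summed T cell markers were 18.47 and 14.98 FPKM in Dhps cko and 11.86 and 8.01 FPKM in Dhps flox, and summed eosinophil markers 98.69 and 94.03 FPKM against 80.16 and 81.56 FPKM. Of 6 erythroid genes 1 and of 5 early neutrophil genes 1 was higher without overlap, and their summed levels overlapped (erythroid, 451.8 and 541.5 FPKM against 368.8 and 553.1 FPKM; early neutrophil, 81.25 and 54.51 FPKM against 46.28 and 56.53 FPKM). No gene of these lists was at 0 in every library, and their part in the *S100a11* result was not tested.

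*S100a6* (calcyclin), which binds the calcyclin-binding protein CACYBP, had 40.25 and 46.22 FPKM in Dhps cko and 44.45 and 30.4 FPKM in Dhps flox. The groups overlapped, and Dhps flox replicate 2 was the low library. Its log2 fold change was 0.23 (SE 0.19, 95% interval -0.26 to 0.72, limma adjusted p = 0.838) and became -0.04 without that library.

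*S100a10* (p11), the partner of annexin A2 that has lost calcium binding, had 2.68 and 3.22 FPKM in Dhps cko and 2.96 and 2.02 FPKM in Dhps flox. It followed the pattern of *S100a6*, with Dhps flox replicate 2 again the lowest library and overlap between the groups. Its log2 fold change was 0.25 (SE 0.22, 95% interval -0.31 to 0.81, adjusted p = 0.840), or -0.01 without Dhps flox replicate 2. Only about 41 to 69 fragments per library stood behind these values. The ratio of *S100a6* to *S100a10* was 15.0 and 14.4 in Dhps cko and 15.0 and 15.1 in Dhps flox, so these genes, which lie in separate groups on the chromosome, kept an almost fixed ratio over the 4 libraries.

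*S100a13*, which takes part in the unconventional release of FGF1 and interleukin-1α, had 14.08 and 11.91 FPKM in Dhps cko and 11.51 and 10.76 FPKM in Dhps flox. Both Dhps cko values were above both Dhps flox values. The log2 fold change was 0.22 (SE 0.10, 95% interval -0.05 to 0.49, adjusted p = 0.768), and it was 0.10 without Dhps cko replicate 1. The *S100a13* start lies 43 bases from the start of *S100a1*, which is transcribed in the opposite direction. *S100a1* had 7.36 and 5.08 FPKM in Dhps cko and 6.29 and 5.42 FPKM in Dhps flox, with overlap and a log2 fold change of 0.07 (SE 0.20).

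*S100a4* (metastasin), which binds non-muscle myosin IIA, had 11.32 and 9.81 FPKM in Dhps cko and 9.48 and 10.29 FPKM in Dhps flox. The values of the genotypes interleaved, and the log2 fold change was 0.09 (SE 0.10, 95% interval -0.17 to 0.35, adjusted p = 0.888), or -0.01 without Dhps cko replicate 1. In GENCODE M21, 51.7% of the exon bases of *S100a4* are shared on the same strand with the read-through model *Gm42674*, for which no value was used here.

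**Figure D2:**
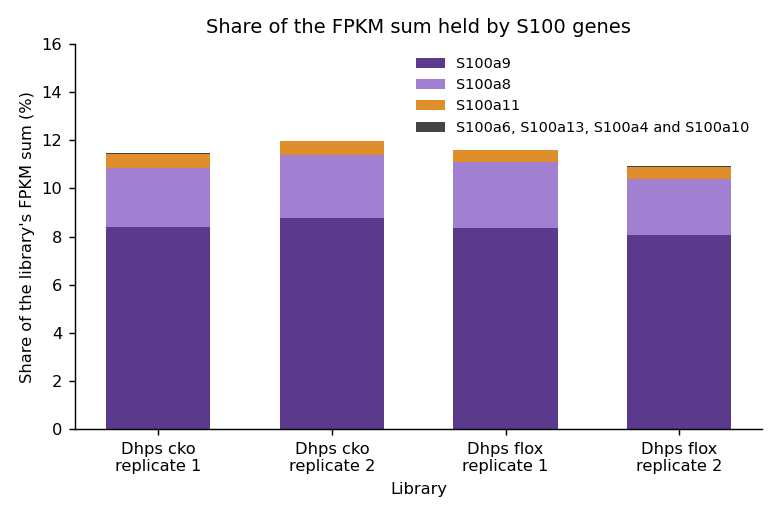
Share of each library's FPKM sum (vertical axis, percent, from 0) held by *S100a9*, *S100a8*, *S100a11* and the other 4 genes, stacked, with 1 bar per library. The bars reach 11.46% and 11.98% in Dhps cko and 11.62% and 10.92% in Dhps flox, and the 4 least abundant genes are too small to see.

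Summed over the 7 genes, the share of the FPKM sum was 11.46% and 11.98% in Dhps cko and 11.62% and 10.92% in Dhps flox. Dhps flox replicate 1 lay between the Dhps cko libraries, and the means of 11.72% ± 0.368 and 11.27% ± 0.495 (SD, n = 2 each) differed by 0.45 percentage points. This difference was 0.101 to 0.8 points with 1 library left out, and 0.288 points with *Lyz2* and *Gm20716* taken out of the FPKM sum. *Lyz2* held a mean of 0.730% of the FPKM sum in Dhps cko and 2.16% in Dhps flox. No p is given for the summed share of the 7 genes, since these were chosen with results of these data known. *S100a8* and *S100a9* accounted for 94.85% to 95.68% of the members' FPKM. The other 5 genes, nearly all of it *S100a11*, held 0.590% and 0.593% of the FPKM sum in Dhps cko and 0.501% and 0.509% in Dhps flox, without overlap. FPKM is a level per length, and short transcripts therefore weigh more in an FPKM sum than in fragments. Converted with the longest annotated transcript of each gene (498 to 783 bases), the 7 genes took roughly 1.85% and 1.96% of the mapped fragments in Dhps cko and 1.88% and 1.71% in Dhps flox.

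The order of the levels per length was the same in all 4 libraries, namely *S100a9*, *S100a8*, *S100a11*, *S100a6*, *S100a13*, *S100a4* and *S100a10*. The range over the libraries did not overlap between neighbours in this order, except between *S100a13* (10.76 to 14.08 FPKM) and *S100a4* (9.48 to 11.32 FPKM). Within a library *S100a4* was at 0.804 to 0.956 of the *S100a13* level. The level did not follow position alone, as *S100a7a*, a skin-type S100 gene 15.0 kb before *S100a8*, reached only 0.55 to 1.01 FPKM.

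**Figure D3:**
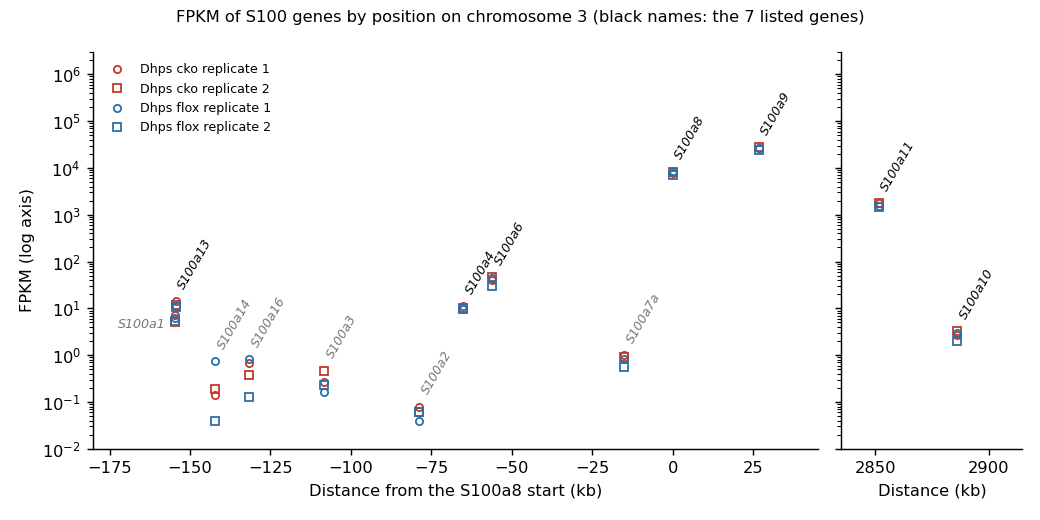
FPKM (log axis) of the S100 genes of chromosome 3 against the distance of their start from the *S100a8* start in kb, with 1 point per library and a separate panel for *S100a11* and *S100a10* at 2852 and 2886 kb. *S100a8* and *S100a9* stand between 7165 and 28033 FPKM, while *S100a7a* at -15.0 kb lies at 0.55 to 1.01 FPKM and *S100a2* at -78.7 kb at 0.08 FPKM or less.

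In the comparison across all genes, 0 of the 7 genes had an adjusted p under 0.05, as did 0.00557% of all genes tested (1 of 17948). At an unadjusted p under 0.05 there was 1 of 7, *S100a11*, against 7% of all genes (4.72% higher and 2.28% lower in Dhps cko). The libraries of the genotypes did not overlap for 2 of 7 genes, *S100a11* and *S100a13*, both higher in Dhps cko, where the background was 20% of genes higher, 16% lower and 36% in either direction. The log2 fold change was above 0 for 7 of 7 genes, compared with 52.2% of all genes tested, and its median was 0.22 compared with 0.01 for all genes. This count was 4 of 7, and the median 0.04, without Dhps flox replicate 2, the library with the lowest FPKM sum and the lowest *S100a9*, *S100a8*, *S100a11*, *S100a6*, *S100a13* and *S100a10* values.

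**Figure D4:**
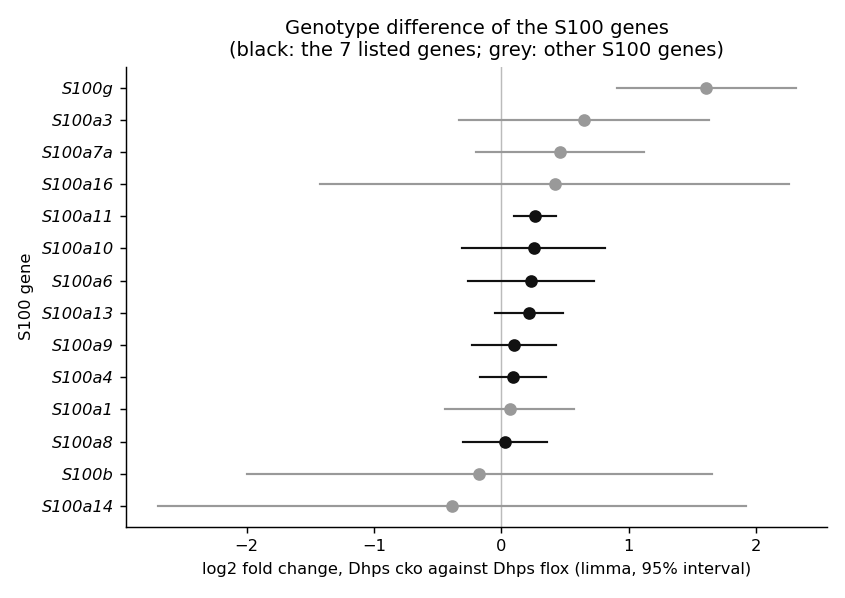
Log2 fold change of Dhps cko against Dhps flox (horizontal axis; point, limma estimate; line, 95% interval; n = 2 libraries each) for the 7 S100 genes in black and the other S100 genes tested in grey. Among the 7, only the interval of *S100a11* (0.10 to 0.43) does not include 0. *S100g*, which is not among the 7, has the highest estimate of all genes shown (1.61), and its interval (0.91 to 2.31) does not include 0 either.

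Another 9 S100 symbols were in the data, of which 7 reached the mean of 0.1 FPKM needed for testing, 0 had an adjusted p under 0.05 by limma, 1 (*S100g*) had an unadjusted p under 0.05 (7% of all genes tested), and 3 were higher in both Dhps cko libraries (20% of all genes). *S100g* (calbindin-D9k, chrX:162961992-162964599, minus strand), a calcium carrier of the intestinal epithelium, had 9.34 and 5.39 FPKM in Dhps cko and 2.42 and 2.11 FPKM in Dhps flox. Dhps cko replicate 1 was the highest library and the groups did not overlap. The log2 fold change was 1.61 (SE 0.27, 95% interval 0.91 to 2.31, unadjusted p of limma 0.00201, adjusted p = 0.456), and it lay between 1.22 and 2.00 under the alternatives, with an adjusted p of 0.189 to 0.946. Without Dhps flox replicate 2 the unadjusted p was 0.0629. About 30 to 144 fragments per library stood behind the gene.

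Some intestinal epithelial transcripts were higher in the same libraries as *S100g* and others were not. In a list of 15 such genes, assembled with these values known, 6 were higher in both Dhps cko libraries, compared with 20% of all genes tested, and 9 had a log2 fold change above 0, compared with 52.2%. *Alpi*, the intestinal alkaline phosphatase, had 7.39 and 5.21 FPKM against 2.26 and 2.17 FPKM, and *Fabp1*, a fatty acid-binding protein of enterocytes and liver, had 5.72 and 3.44 FPKM against 1.67 and 1.31 FPKM. The keratin *Krt8* was instead highest in Dhps flox replicate 1, with 2.63 and 1.73 FPKM in Dhps cko and 8.85 and 0.9 FPKM in Dhps flox. The summed level of the list was 51.59 and 33.79 FPKM in Dhps cko and 43.37 and 18.47 FPKM in Dhps flox, with overlap, and no gene of it was at 0 in every library. The part of these transcripts in the *S100g* result was not tested.

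The remaining S100 genes were near the detection limit. *S100a7a* (0.55 to 1.01 FPKM, log2 fold change 0.46, adjusted p = 0.780) and *S100a3*, a hair follicle gene (0.16 to 0.47 FPKM, log2 fold change 0.65, adjusted p = 0.787), were higher in both Dhps cko libraries. Over the alternatives the log2 fold change ran from 0.21 to 0.711 for *S100a7a* and from 0.194 to 0.96 for *S100a3*. *S100a14* and *S100a16*, which are mainly epithelial, overlapped between the genotypes, and *S100a14* was highest in Dhps flox replicate 1 (0.75 FPKM), the library with the highest *Krt8*. *S100b*, an astrocyte marker, was listed at 0 in 1 library and reached 0.24 FPKM in another. *S100a2* stayed at 0.04 to 0.08 FPKM and was not tested.

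The receptors and adaptors of released S100 proteins were measured in the same cells. Of 10 such genes, 0 passed the adjusted threshold, and *Cd14*, the co-receptor of TLR4, was the 1 gene at an unadjusted p under 0.05, where 7% of all genes tested were (2.28% lower in Dhps cko). *Cd14* had 12.02 and 12.5 FPKM in Dhps cko and 17.62 and 15.27 FPKM in Dhps flox (log2 fold change -0.42, SE 0.09, adjusted p = 0.510). *Myd88*, the adaptor of TLR4, had 36.02 to 42.37 FPKM, *Bsg*, a receptor of S100A9, 37.37 to 38.98 FPKM, and *Nptn*, a receptor of S100A8, 14.35 to 15.79 FPKM. Of the 10 genes, 4 were higher and 2 lower in both Dhps cko libraries (20% and 16% of all genes tested), and the median log2 fold change was 0.03, with a range of -0.01 to 0.08 over the alternatives.

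Among 13 genes of annexins and other targets of S100 proteins, 11 were tested and 0 passed the adjusted threshold. *Anxa1*, the partner of S100A11, had 1386 and 1606 FPKM in Dhps cko and 1627 and 1369 FPKM in Dhps flox, with a log2 fold change of -0.00066. Its values overlapped, unlike those of *S100a11*. *Anxa2*, the partner of S100A10, had 126.8 and 140.8 FPKM against 124.2 and 120.5 FPKM, and its level per length was above that of *S100a10*, which stood at 0.0168 to 0.0238 of it. *Myh9*, the myosin bound by S100A4, had 309.8 to 357.4 FPKM and *Tubb5*, a tubulin, 140.8 to 160.6 FPKM, both with overlap. The median of the 11 genes was -0.00066, and *Anxa6* was the 1 gene at an unadjusted p under 0.05 (log2 fold change 0.22, SE 0.07, adjusted p = 0.626), named here because it is the gene behind that count, where the share of all genes was 7% (4.72% higher). In the list 4 genes were higher and 1 lower without overlap, against 20% and 16% of all genes, and the median lay between -0.05 and 0.06 over the alternatives.

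Of 10 transcription factors of myeloid S100 genes, 0 passed the adjusted threshold and the median log2 fold change was 0.05. This median was -0.00569 without Dhps cko replicate 1 and 0.12 without Dhps cko replicate 2. *Cebpe*, which drives late granulocyte maturation, was the most abundant, with 298.1 and 266.1 FPKM in Dhps cko and 234.7 and 246.8 FPKM in Dhps flox (log2 fold change 0.23, SE 0.08, adjusted p = 0.652). It was the 1 factor at an unadjusted p under 0.05 (7% of all genes, 4.72% higher). Of the 10 factors 2 were higher without overlap, against 20% of all genes, and 8 had a log2 fold change above 0, against 52.2%. *Spi1*, which encodes PU.1, had 135.4 to 154.5 FPKM, *Stat3* 36.27 to 38.71 FPKM and *Cebpd* 26.77 to 30.84 FPKM, all with overlap between the genotypes.

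Similarity between genes was measured as the root mean square difference of log2(FPKM + 0.1) after centring each gene on its mean over the 4 libraries, where 0 is an identical pattern. Within the family the closest pair was *S100a6* and *S100a10* (0.0243), followed by *S100a8* and *S100a9* (0.0674), and the most distant was *S100a4* and *S100a10* (0.292). Among 3753 other genes that averaged 10 FPKM or more, the nearest to *S100a8* were *Dhx40* (0.0076) and *Selenot* (0.0109), and the nearest to *S100a9* were *Zc3h15* (0.00656) and *Tmem120a* (0.0105). *S100a11* was nearest to the MHC class I gene *H2-D1* (0.0168) and the interferon-induced gene *Slfn4* (0.0196), which were likewise higher in both Dhps cko libraries. *H2-D1* had 236.5 and 243.8 FPKM in Dhps cko and 204.1 and 204.5 FPKM in Dhps flox.

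Both *S100a6* (0.0479) and *S100a10* (0.0377) were nearest to *Rps21*, a ribosomal protein gene, followed by *Gm23935* (0.0494) and *Gm10132* (0.0431). *Rps21* had 14.36 and 16.72 FPKM in Dhps cko and 14.9 and 10.24 FPKM in Dhps flox, with Dhps flox replicate 2 lowest as in both S100 genes. *S100a4* was nearest to *Atp5d* (0.00719) and *Utp3* (0.0143), and *S100a13* to *Ywhaq* (0.0134) and *Mpst* (0.0154). With 4 libraries many genes have similar patterns, and these values are a description without a test.

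**Figure D5:**
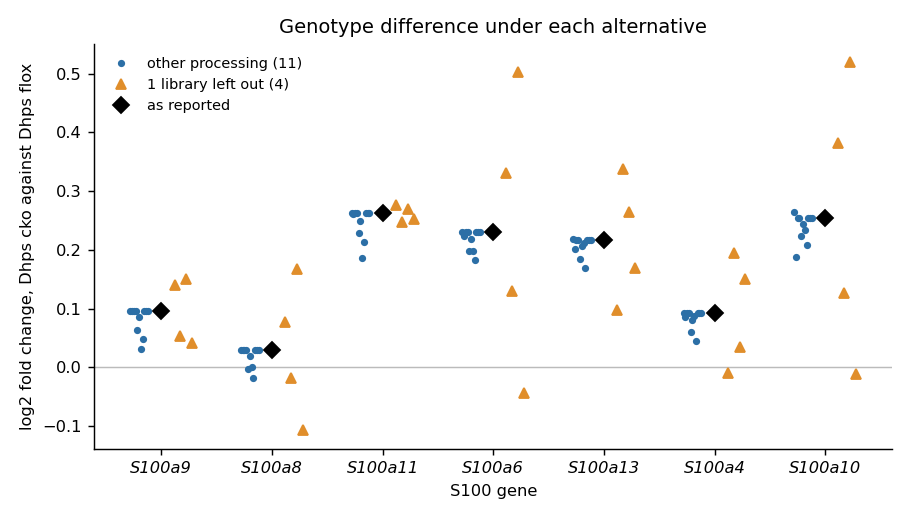
Log2 fold change of Dhps cko against Dhps flox (vertical axis) for the 7 S100 genes as reported (black diamonds), under 11 other ways of processing (blue points) and with each of the 4 libraries left out (orange triangles). *S100a9*, *S100a11* and *S100a13* stay above 0 throughout, while *S100a8*, *S100a6*, *S100a4* and *S100a10* cross 0, mostly when a library is left out.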

How the data were processed

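Total RNA from 4 samples of splenic PMN-MDSCs was sequenced. The authors trimmed the reads with Cutadapt, aligned them with HISAT2 (build mm10 per the submitters' processing notes) and deposited FPKM per gene from StringTie and ballgown, rounded to 2 decimals. The annotation release, strand setting and handling of fragments shared by near-identical genes are not given in the sources used here. The deposited FPKM carry no counts, and whole reads could not be recovered from them, so count tests were not run.

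Genes that averaged 0.1 FPKM or more (17948 of 28585) were compared as log2(FPKM + 0.1), which understates changes of low genes, with limma 3.58.1 in R 4.3.3 (lmFit, eBayes with trend) and Benjamini-Hochberg adjustment. The script was tested on simulated data. GENCODE M21, used for positions, holds 28511 of the identifiers. Copies were searched with BLAST 2.17.0 (at least 90% identity over 100 bases). Promoters came from RefSeq GRCm38.p6. Other steps used Python 3.11.15.

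The members and lists were chosen with earlier results of these data known. Named were the members, other S100 genes, *Dhps*, *Lyz2*, *Ngp* and other leading genes, the 4 most abundant genes of each partner list, the 2 genes most similar to each member, and leading markers. *Anxa6*, the intestinal genes, the copies of *S100a11* and the genes named beside a marker or a pattern were chosen after their values were seen. The alternatives were pseudocounts of 0.01 and 1, no filter and a mean of at least 1 FPKM, 4 other scalings, 2 other variance models, a replicate block, and leaving out each library.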

Additional observations from a re-analysis of the deposited data

How the results depend on the processing

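No S100 gene passed an adjusted p of 0.05 by limma under any of the alternatives that kept all 4 libraries. The summed share of the 7 genes was higher in Dhps cko by 0.101 to 0.8 percentage points with 1 library left out. This difference was 0.288 points with *Lyz2* and *Gm20716* taken out of the FPKM sum, and 0.478 points without mitochondrially encoded genes. *S100a9*, *S100a11*, *S100a13* and *S100g* kept their direction under all 15 alternatives, and *S100a7a* and *S100a3* under the 14 that could test them, since both fall below a mean of 1 FPKM. *S100a8* turned to -0.002 under TPM scaling and -0.0183 when libraries were scaled on the sum without the 7 genes and *Lyz2*. Leaving out each library gave log2 fold changes of -0.107 to 0.167 for *S100a8*, -0.00969 to 0.195 for *S100a4*, -0.0433 to 0.503 for *S100a6*, -0.0104 to 0.519 for *S100a10*, -0.197 to 0.329 for *S100a1*, -0.573 to 1.41 for *S100a16*, -1.69 to 0.914 for *S100a14* and -1.06 to 0.71 for *S100b*. *S100b* was also 0.00514 with a pseudocount of 1. The cause of these turns was not tested. With 1 library left out, the lone library of a genotype is assumed to vary like the others. Between 0 and 4 genes of the whole table had an adjusted p under 0.05 across the alternatives. Libraries with the same replicate number did not deviate together (correlation -0.0567 over 10629 genes), and a replicate block gave 0 genes in place of 1, left the *S100a11* log2 fold change at 0.262 (adjusted p = 0.887) and passed 0 of the 7 genes. With 2 libraries per genotype and no counts, a p above the threshold does not show equal levels, for abundant S100 genes as for weak ones, and larger changes than those measured here could also miss it.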
